A study of Mus musculus with 2 samples.

Results

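The transcription factors that set up the inner ear and its sensory and neuronal lineages were examined in the E18.5 mouse cochlea. The group was drawn up by gene name, with earlier results of these data known. It holds 38 genes of the sine oculis homeobox, EYA, PAX, DLX, TBX, basic helix-loop-helix (bHLH), ID and POU4 families, with further homeobox, zinc finger, SOX and nuclear receptor genes. Of these, 33 were measured, out of 12393 genes in all, on the MOE430A array, an Affymetrix array that reads each transcript with a set of short oligonucleotide probes. *Pax2*, *Pou4f1*, *Pou4f2*, *Otx1* and *Emx2* were not measured here. The largest difference among members with a mean level of at least 5 was that of *Neurod1*, a bHLH factor of auditory neurons. It had a log2 level of 4.58 on the +/+-titled array and 6.49 on the −/−-titled array, so its mean level of at least 5 rests on the latter. Most members at a mean level of 7 or more differed little, with 11 of the 13 slightly lower on the −/−-titled array. In that band 49.2% of all genes were higher.

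Inner ear development starts in the otic placode, where PAX2, PAX8, GATA3 and the EYA and sine oculis proteins act together and DLX, GBX2, HMX3, OTX and TBX1 factors divide the forming otocyst into regions. EYA proteins are co-activators that join sine oculis homeodomain proteins on DNA. NEUROG1 and NEUROD1 drive neuroblasts of the auditory and vestibular ganglia, while SOX2 marks the prosensory domain and ATOH1, with POU4F3, GFI1 and BARHL1 after it, makes and keeps hair cells. ID proteins carry the helix-loop-helix of bHLH factors without the basic part that binds DNA, and so hold back ATOH1 and its relatives. By late gestation the cochlear hair cells and neurons have left the cell cycle and are maturing.

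The series holds 2 arrays of total cochlear RNA from C57BL/6J embryos bred from parents heterozygous for a targeted disruption of *Igf1*, the gene of insulin-like growth factor I, with 8 cochleae given per array. The otic capsule was part of the dissected tissue, while the vestibular organs were removed, and all embryos were of stage E18.5. The array titled +/+ has a source name and a description of *Igf1* −/−, and the −/−-titled array has those of *Igf1* +/+, so both are named here by their titles. Every difference is the level on the −/−-titled array minus that on the +/+-titled array, after the median difference of 0.022 had been subtracted, and all signs turn if the source names hold instead. The probe sets of *Igf1* itself were at 11.42, 8.11 and 7.78 on the +/+-titled array and at 11.03, 7.37 and 7.23 on the −/−-titled array, with differences of −0.42, −0.75 and −0.58. All 3 were thus present on both, and as the exons missing from the disrupted allele are not stated, these values do not settle the labels. The methods speak of several independent RNA pools of each genotype, and whether a column stands for 1 pool or several is likewise not stated.

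There was 1 column of values per title and thus no replicate in the values used here, which allows neither a test nor a p-value. The one repeat measurement came from genes with several probe sets on the same 2 arrays, and it holds no variation between embryos or RNA pools. The pooled SD of their differences was 1.18 at a mean level below 5, 0.31 from 5 to 7 and 0.12 at 7 or more. In these bands of level the 5th and 95th percentiles of the differences over all genes were −1.83 and 1.99, −0.52 and 0.70, and −0.26 and 0.30. The median level over all probe sets was 6.58 on the +/+-titled array and 6.63 on the −/−-titled array. Levels of different probe sets depend on their own probes. They were ordered to pick 1 probe set per gene, to form the bands and to choose the marker genes named, not to compare amounts of transcript between genes. Since whole tissue was measured, fewer cells of a type and less RNA per cell cannot be told apart.

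**Figure D1:**
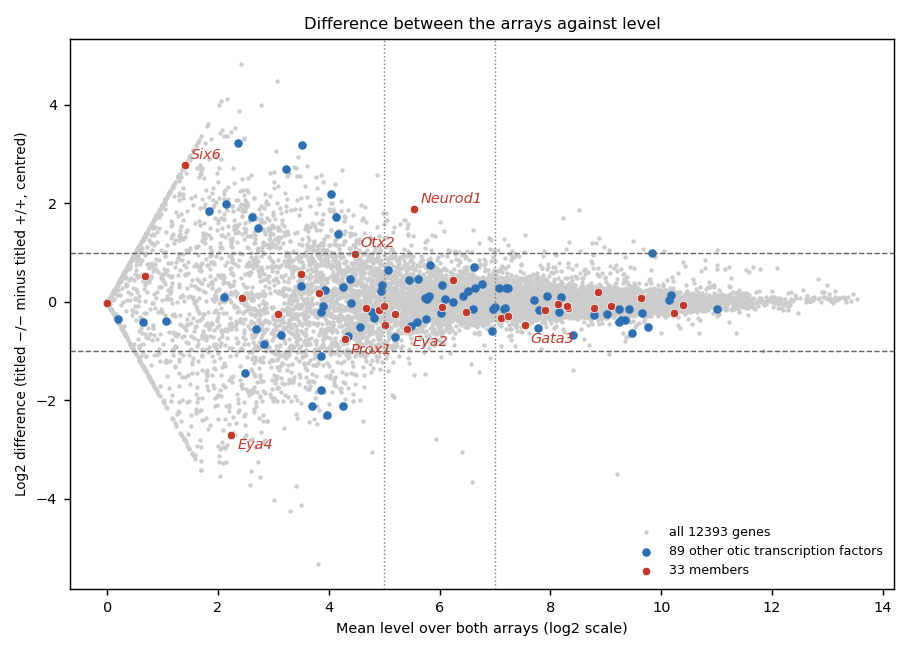
Centred log2 difference (titled −/− minus titled +/+) on the vertical axis and mean log2 level of the gene on the horizontal axis, with 1 point per gene: all 12393 genes in grey, 89 other otic transcription factors in blue and the 33 members in red. Dashed lines mark differences of 1 and −1 and dotted lines mean levels of 5 and 7. *Neurod1* at 1.88 is the highest point at a mean level of 5 or more, just above *Gh* at 1.87, whereas *Six6* and *Eya4* lie at low level, where the spread is wide, and outside the 5th and 95th percentiles there.

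Of the 33 measured members, 10 were higher and 22 lower on the −/−-titled array, and *Neurog1*, at 0 on each, had no direction. Over all genes not listed at 0 on both arrays, 51.8% were higher. The median difference of the members was −0.11, against 0.003 over all genes. Beyond a size of 1 log2 unit, 2 members were above the limit, *Six6* and *Neurod1*, and 1 was below it, *Eya4*. Of all genes, 5.67% lay above 1 and 4.16% below −1, so the members' share was near the background. Of the 3 members past the limit, *Neurod1* had a mean level above 5, although it was below 5 on the +/+-titled array. *Six6* and *Eya4* were close to the floor.

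*Neurod1* was read by 2 probe sets of like level that gave the same direction. The stronger was at 4.58 on the +/+-titled array and 6.49 on the −/−-titled array, a log2 difference of 1.88. The second was at 4.77 and 6.27, in the same order, a difference of 1.48. Both probe sets lay below 5 on the +/+-titled array, so the gene's place among genes of 5 or more rests on the −/−-titled value. Both differences exceeded the SD of 0.31 between probe sets at this mean level, which does not measure variation between samples. Below 5, where both +/+-titled values lay, that SD was 1.18. The 95th percentile of differences there was 1.99, larger than either difference. Of 2566 genes with a mean level from 5 to 7, 1.75% had a difference above 1 and 0.779% a difference below −1, and none had a larger positive difference than *Neurod1*. The same was true among all 8964 genes with a mean level of at least 5, although the growth hormone gene *Gh*, at 1.87, was close to it and its 4 probe sets ran from 1.84 to 2.05, so that the order of these genes depends on the probe set taken.

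The other bHLH activators among the members did not differ in this way. *Atoh1*, the factor that starts hair cell differentiation, was at 6.58 on the +/+-titled array and 6.39 on the −/−-titled array, a difference of −0.21 that was within the SD between probe sets. *Neurog1*, which acts before *Neurod1* in otic neuroblasts and is switched off as they mature, was listed at 0 by both of its probe sets on both arrays. Among the relatives of *Neurod1* that are not members, 5 were measured, of which 2 were higher and 3 lower. *Neurod2* was at 1.87 and 4.58 and *Neurog2* at 1.95 and 3.48 on the +/+- and −/−-titled arrays. *Neurod4* was at 4.74 and 2.64 and *Neurog3* at 4.75 and 2.98, in the same order, so these low values went both ways. *Neurod6* was at 5.93 and 5.60. The E proteins, with which NEUROD1 and ATOH1 pair to bind DNA, were present at good levels, with differences of −0.21 for *Tcf3*, 0.14 for *Tcf4* and 0.03 for *Tcf12*.

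To show the sequence at the start of genes the results turn on, windows from 250 bases before to 50 bases after the annotated start are given for *Neurod1*, for *Gata3*, the member at a level of 7 or more with the largest difference, and for *Six6* and *Rorb*, whose promoters the study compared. Sequences are from RefSeq on GRCm38.p6, 5′ to 3′ along the gene, with the E-box CANNTG, the site bound by bHLH pairs, in capitals. *Six6* has no capitals because its window held no E-box, and of *Rorb* the first of 2 annotated windows is shown.
Neurod1 (chr2:79456587-79456886, minus strand): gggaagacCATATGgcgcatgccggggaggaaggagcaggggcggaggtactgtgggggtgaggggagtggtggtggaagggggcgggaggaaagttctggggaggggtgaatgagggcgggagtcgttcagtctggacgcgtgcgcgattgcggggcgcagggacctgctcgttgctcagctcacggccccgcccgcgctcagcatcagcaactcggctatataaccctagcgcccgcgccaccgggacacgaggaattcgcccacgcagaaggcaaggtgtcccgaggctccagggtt
Gata3 (chr2:9878551-9878850, minus strand): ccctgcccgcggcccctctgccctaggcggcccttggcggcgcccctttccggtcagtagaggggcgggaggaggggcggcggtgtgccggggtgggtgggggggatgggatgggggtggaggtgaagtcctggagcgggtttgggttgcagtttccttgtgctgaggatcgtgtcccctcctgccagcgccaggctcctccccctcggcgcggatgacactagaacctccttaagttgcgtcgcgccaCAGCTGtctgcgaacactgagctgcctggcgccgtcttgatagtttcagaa
Six6 (chr12:72939632-72939931, plus strand): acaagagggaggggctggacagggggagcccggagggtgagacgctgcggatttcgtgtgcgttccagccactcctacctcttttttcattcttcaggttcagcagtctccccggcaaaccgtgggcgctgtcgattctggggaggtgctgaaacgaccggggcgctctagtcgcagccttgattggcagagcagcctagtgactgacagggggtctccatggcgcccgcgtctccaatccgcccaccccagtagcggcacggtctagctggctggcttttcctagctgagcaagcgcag
Rorb (chr19:19111147-19111446, minus strand): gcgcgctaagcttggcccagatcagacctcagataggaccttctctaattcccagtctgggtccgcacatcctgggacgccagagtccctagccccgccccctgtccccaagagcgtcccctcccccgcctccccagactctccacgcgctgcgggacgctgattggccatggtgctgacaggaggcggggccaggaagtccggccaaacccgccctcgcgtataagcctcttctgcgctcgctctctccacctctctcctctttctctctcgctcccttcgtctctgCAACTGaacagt

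The *Neurod1*, *Gata3* and *Rorb* windows above held 1 E-box each, which began at positions −242, −1 and 38, counted from the annotated start as 0. Windows were given for 29 of the 38 members, and those of *Dlx5*, *Dlx6*, *Eya1*, *Eya2*, *Id1*, *Otx1*, *Pou4f3*, *Tbx2* and *Tbx3* were not used here. Of the 29, 18 held an E-box in at least 1 window, and among all their 44 windows 56.8% did, against 72.3% of 32851 windows of all genes. The letters AGATAA, read by GATA factors, were found in 11.4% of the members' windows and in 11.2% of all windows. The MEF2 consensus, named because the study looked at MEF2 and at longer promoters of *Six6* and *Rorb*, was found in 2.27% of the members' windows, namely in 1 window of *Otx2*, and in 3.19% of all windows. Both strands were searched for each motif, the 3 motifs were counted separately and a match is only a description of the sequence.

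The sine oculis and EYA genes were lower on the −/−-titled array in 6 of 7 cases, where 51.8% of all genes were higher. Of the 6, *Eya4* was near the floor, and *Six4* turned to 0.52 when its probe sets were averaged. Differences at levels of 7 or more were small. *Six2*, of mesenchymal and kidney progenitors, was at 8.36 on the +/+-titled array and 8.26 on the −/−-titled array, a difference of −0.12. *Six5* was at 8.33 and 8.26 and *Six4* at 7.98 and 7.84, in the same order, with differences of −0.10 and −0.16. None of these stood apart, since all lay between the 5th and 95th percentiles of genes at this level, −0.26 and 0.30. The weaker probe set of *Six4*, at 0.26 and 1.48, had a difference of 1.20 in the opposite direction at the floor of the array.

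*Eya1*, whose human counterpart is mutated in branchio-oto-renal syndrome, was at 6.09 and 6.00 on the +/+- and −/−-titled arrays, a difference of −0.11. *Eya2* was at 5.68 and 5.15, and its difference of −0.55 was below the 5th percentile of genes at its level, −0.52. *Eya4*, a gene of late-onset hereditary deafness, was at 3.56 and 0.89. Its difference of −2.70 was the lowest of the group and was read from 1 probe set. Of genes with a mean level below 5, 15.3% had a difference below −1 and 19.8% a difference above 1, so a difference past the limit was common there, although that of *Eya4* was also below the 5th percentile of −1.83 and 52 of 3429 genes, itself included, were as low.

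*Six6*, a homeobox gene of retina, hypothalamus and pituitary, was listed at 0 on the +/+-titled array and was at 2.79 on the −/−-titled array. Of these 3429 genes, 42, *Six6* included, had a difference as high. A listed 0 gives no fold, and the second value also lay below the 25th percentile of all values, 4.11, so that no difference was left when values below it were raised to it. Of the partners of this network outside the group, *Eya3* was at 7.09 and 7.39, *Six3* at 3.95 and 3.76, and the co-repressor genes *Dach1* and *Dach2* were at 4.81 and 4.33 and at 6.49 and 6.79, in the order +/+ and −/−. These differences, 0.28, −0.20, −0.50 and 0.28, had no common sign.

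**Figure D2:**
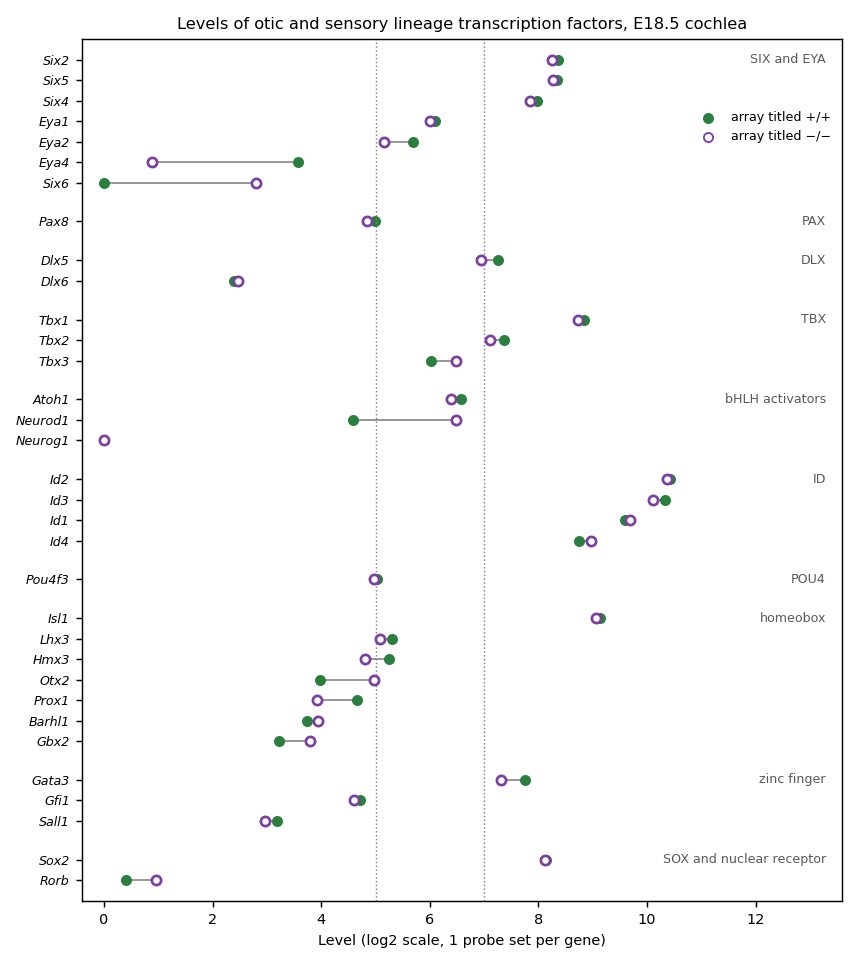
Log2 level of each of the 33 measured members on the +/+-titled array (green, filled) and on the −/−-titled one (purple, open) with a connecting line, with 1 probe set and 1 value per array for each gene, ordered by family. Dotted lines mark levels of 5 and 7. The longest lines are those of *Six6*, *Eya4* and *Neurod1*, and that of *Neurod1* is the one among them that reaches past 5.

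The 4 ID genes were all well above the floor and differed in both directions by small amounts. *Id1* was at 9.59 on the +/+-titled array and 9.68 on the −/−-titled array, a difference of 0.07. *Id2* was at 10.42 and 10.38 for its strongest probe set, 8.93 and 8.96 for the next and 6.35 and 6.73 for the weakest, and the differences of −0.06, 0.004 and 0.36 did not share a sign. *Id3* was at 10.33 and 10.12, a difference of −0.24 that was just inside the 5th percentile of −0.26. *Id4* was higher on the −/−-titled array by all 3 of its probe sets, with levels of 8.75 and 8.96, 8.48 and 8.71, and 7.97 and 8.28, and differences of 0.19, 0.20 and 0.29. Each of these was inside the 95th percentile of 0.30. The median of the family was 0.002.

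*Gata3*, a zinc finger factor needed for the cochlear duct, auditory neurons and hearing in humans, was at 7.76 on the +/+-titled array and 7.31 on the −/−-titled array. Its difference of −0.48 was the largest in size among the 13 members at a level of 7 or more, and of 6398 genes at this level 45, itself included, had a difference as low. *Gfi1*, needed for hair cell survival, was at 4.72 and 4.61, and *Sall1*, mutated in Townes-Brocks syndrome, at 3.19 and 2.96. All 3 zinc finger genes were thus lower on the −/−-titled array, although the differences of *Gfi1* and *Sall1*, −0.13 and −0.25, were small beside the SD of 1.18 at their level.

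Among the T-box genes, *Tbx1*, which patterns the otocyst and the surrounding mesenchyme, was at 8.84 and 8.74 on the +/+- and −/−-titled arrays. *Tbx2*, a regulator of inner hair cell identity, was at 7.37 and 7.10. *Tbx3* was at 6.02 and 6.48 for its stronger probe set and at 0.64 and 2.03 for the weaker. The differences were −0.13 for *Tbx1*, −0.29 for *Tbx2* and 0.44 and 1.37 for *Tbx3*, so that *Tbx3* was the member of this family that was higher on the −/−-titled array. *Dlx5*, of the dorsal otocyst and the otic capsule, was at 7.25 and 6.95, a difference of −0.33, and its neighbour *Dlx6* was at 2.39 and 2.47. *Pax8*, of the early placode, was at 4.98 and 4.84.

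At a mean level of 7 or more, 3 of the 13 members, *Gata3*, *Dlx5* and *Tbx2*, were below the 5th percentile of genes at that level, and none was above the 95th. In the same band 2 members, *Id1* and *Id4*, were higher and 11 lower on the −/−-titled array, with a median difference of −0.12, whereas 49.2% of all 6398 genes there were higher. None of the 13 passed a difference of 1 in either direction, as did 0.328% and 0.0625% of the genes of this band above 1 and below −1. From 5 to 7, 2 of 8 members were higher, *Tbx3* and *Neurod1*, where 54.2% of all genes were. Below 5, 6 of the 11 members with a direction were higher, where 55% of genes were.

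*Sox2* was at 8.14 on the +/+-titled array and 8.12 on the −/−-titled array, a difference of −0.04. *Isl1*, a LIM homeobox gene of auditory neurons and of the prosensory domain, was at 9.13 and 9.05 for its stronger probe set and at 8.48 and 8.33 for the other, with differences of −0.10 and −0.17. Neither gene of these shared neuronal and sensory lineages stood apart from genes of like level. *Pou4f3*, the hair cell POU factor whose mutation causes deafness in humans, was at 5.03 and 4.97. *Barhl1*, which maintains hair cells, was at 3.73 and 3.93, and its other probe set was listed at 0 on both arrays. *Lhx3*, present in hair cells and the pituitary, was at 5.30 and 5.08 and, for its weaker probe set, at 2.95 and 1.79, with differences of −0.24 and −1.18.

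The remaining homeobox genes lay near or below a level of 5. *Prox1*, a mark of supporting cells, was at 4.65 on the +/+-titled array and 3.93 on the −/−-titled array, and *Hmx3*, of the vestibular otocyst, at 5.24 and 4.80. Their differences were −0.75 and −0.46, and neither passed the 5th percentile of its band. *Otx2*, of forebrain, retina and pituitary, was at 3.98 and 4.97 and *Gbx2*, of the dorsal otocyst and hindbrain, at 3.22 and 3.80, with differences of 0.96 and 0.56 in the other direction. *Rorb*, a nuclear receptor of retina and brain, was at 0.41 and 0.95.

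**Figure D3:**
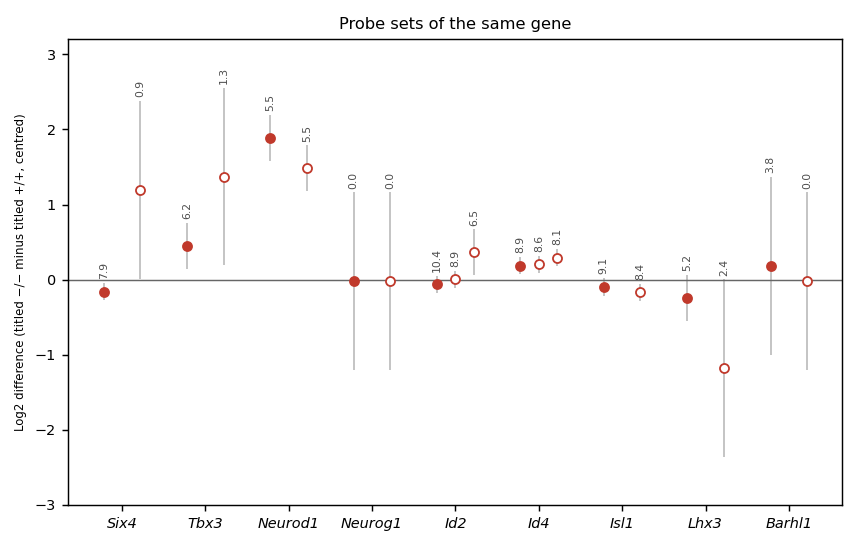
Log2 difference (titled −/− minus titled +/+, centred) of each probe set of the 9 members with several, with the probe set of the highest level filled and the others open. Bars are 1 SD between probe sets of a gene at that level, and the small figures give the mean level of the probe set. Both *Neurod1* points lie above 1, with the SD of levels 5 to 7 as bars although both were below 5 on the +/+-titled array. The second points of *Six4*, *Tbx3* and *Lhx3* come from levels below 5.

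Agreement between probe sets could be read for a minority of the group, as 24 of the 33 genes had 1 probe set. Of the 9 genes with several, *Neurod1*, *Id4*, *Isl1*, *Tbx3* and *Lhx3* had all of them in the same direction. *Six4* and *Id2* had probe sets in opposite directions. *Neurog1* and *Barhl1* could not be compared, since both probe sets of the first and the weaker of the second were listed at 0 throughout.

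The other transcription factors of ear development, a list of 99 genes of which 89 were measured, went in both directions. The counts were 40 genes higher and 46 lower on the −/−-titled array, with a median difference of −0.02, and 3 were listed at 0 on both arrays. Above 1 lay 10 genes, 11.6% of the 86 with a direction against 5.67% over all genes, and below −1 lay 6, or 6.98% against 4.16%. Each of them was at a mean level below 5, where 19.8% and 15.3% of all genes passed these limits. Of the 27 genes at a level of 7 or more, 9 were higher and 18 lower, where 49.2% of all genes were higher. Of the 27, 8 were below the 5th percentile and 1 above the 95th. The 5 of these with the largest differences were *Zic1* at 0.98, *Tbx18* at −0.67, *Pou3f4* at −0.64, *Gata2* at −0.53 and *Irx3* at −0.51. *Tbx18* and *Pou3f4* are mesenchymal genes of the ear that shape the spiral ligament, while *Zic1* is a gene of dorsal neural tube and cerebellum.

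The tissue label was met by its markers, with all 11 cochlear genes on the list at a level above 7 on both arrays, among them *Col9a1* at 13.09 and 13.11, *Otor* at 12.57 and 12.37 and *Oc90* at 11.23 and 11.32. Of these 11 genes, 8 were lower on the −/−-titled array, with a median difference of −0.27, as were 5 of 7 otic mesenchyme genes, with a median of −0.36 and *Col2a1*, *Col1a1* and *Tgfbi* at 0.01, 0.19 and −0.36. Of all genes at a mean level of 7 or more, 49.2% were higher. The mesenchyme list shares *Coch* with the cochlear list and *Tbx18* and *Pou3f4* with the other otic factors. The lists of the sensory epithelium and its nerve differed less. The median was 0.11 for 10 hair cell genes with *Pvalb*, *Myo6* and *Myo7a* at 0.04, −0.18 and 0.01 and *Slc26a5* listed at 0 on the −/−-titled array, and −0.007 for 10 supporting cell genes with *Epyc*, *Anxa5* and *Fgfr3* at −0.13, 0.05 and 0.11 and *Fgf20* listed at 0 on the +/+-titled array. It was −0.06 for 12 genes of auditory neurons with *Nefl*, *Nefm* and *Stmn2* at −0.18, −0.18 and 0.45. For 5 Schwann cell genes it was −0.14, with *Pmp22*, *Fabp7* and *Mbp* at 0.09, 0.30 and −0.72, the last from 1 of 8 probe sets. Of the genes listed for auditory neurons, which whole tissue cannot assign to the ganglion, 7 were lower and 5 higher on the −/−-titled array. The 4 with the largest positive differences, *Tubb3* at 0.67, *Gap43* at 0.47, *Stmn2* at 0.45 and *Uchl1* at 0.37, were above the 95th percentile of genes at their level, and 1 of the lower genes, *Scg2* at −0.41, was below the 5th. The part of neuron content in the value of *Neurod1* was not tested.

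Several members are also genes of the pituitary, retina or brain, so markers of these tissues are given beside them. Of all genes with a direction, 51.8% were higher on the −/−-titled array, and of those at a mean level below 5, 55%. Of 10 measured pituitary genes, 6 were higher on the −/−-titled array, with a mean level of 3.79 on the +/+-titled array and 4.25 on the −/−-titled array, and *Cga* was listed at 0 on the former. *Gh* differed by 1.87 and *Pomc* by 1.46 for their strongest probe sets, and *Pitx1* by −0.20. The other lower genes of the list were *Lhb*, *Fshb* and *Prl*, at −0.77, −0.74 and −1.71, all of low level. *Pomc*, which is made by the corticotrophs that also use NEUROD1, was at 5.86 and 7.34 on the +/+- and −/−-titled arrays and, by its second probe set, at 3.12 and 6.54. Of 11 hindbrain and central glial genes, 9 were higher on the −/−-titled array, with mean levels of 5.11 and 5.50 and *En1* listed at 0 on the +/+-titled array. The strongest of them, *Zic1*, *Cnp* and *Olig1*, differed by 0.98, −0.22 and 1.30. Of 9 retinal genes, 5 were higher, with mean levels of 3.24 and 3.36, none at 0 and *Pde6g*, *Crx* and *Gnb3* at −0.15, 0.50 and 0.14. The pituitary and retinal counts were thus near the shares over all genes. The part of these tissues in the values of *Neurod1*, *Six6* and *Otx2* was not tested.

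Genes listed for skeletal muscle and lung epithelium also differed between the arrays, and the tissue they came from was not tested. Over all genes not listed at 0 on both arrays, 51.8% were higher on the −/−-titled array. Neither of the following lists had a gene at 0. All 10 skeletal muscle genes were higher on the −/−-titled array, with mean levels of 9.29 there and 8.20 on the other, a median difference of 1.05 and *Acta1*, *Ckm* and *Myh3* at 0.45, 0.70 and 1.05. All 8 genes of lung epithelium were lower there, with mean levels of 4.04 and 6.62, a median difference of −2.69 and *Sftpc*, *Sftpb* and *Scgb3a2* at −3.49, −1.42 and −3.66. The lung list includes *Cldn18*, at −1.88, which the study also places in the stria vascularis. The part of such tissue in the small negative differences of *Gata3*, *Dlx5*, *Tbx2* and the other members of good level was not tested.

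**Figure D4:**
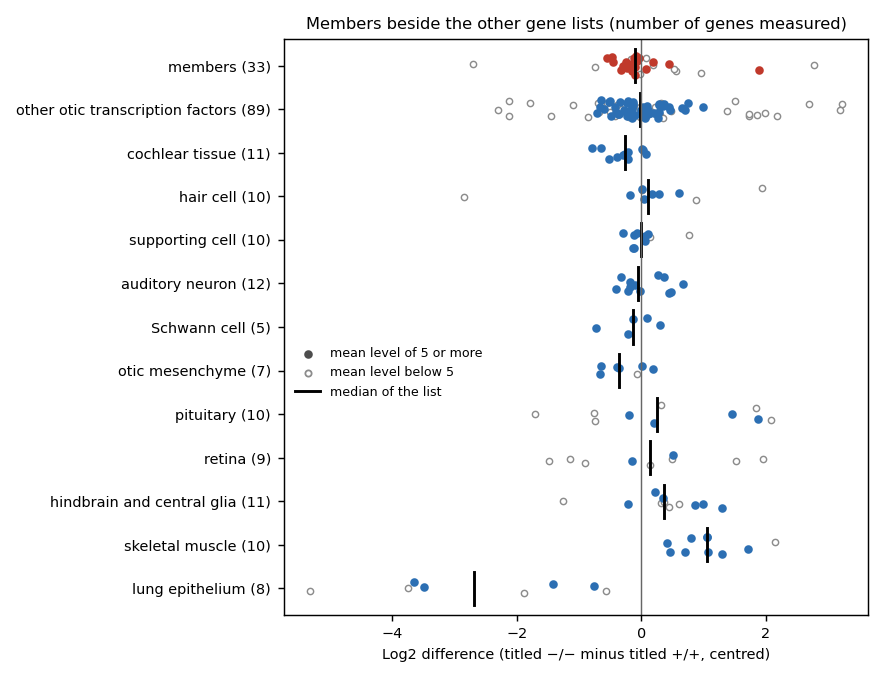
Log2 difference (titled −/− minus titled +/+, centred) of each measured gene of the members, the other otic transcription factors and 11 marker lists, filled where the mean level was 5 or more and open below, with the median of each list as a black bar. The members centre at −0.11, close to the other otic factors at −0.02, while skeletal muscle at 1.05 and lung epithelium at −2.69 stand to either side.

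**Figure D5:**
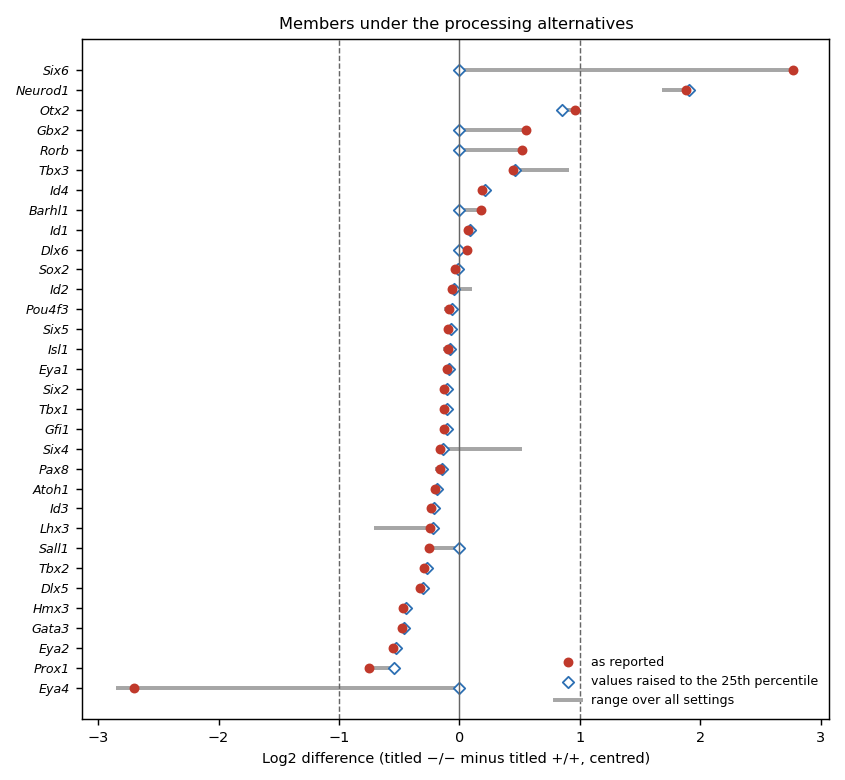
Log2 difference (titled −/− minus titled +/+, centred) of the 32 members with a direction, as reported (red), with a floor at the 25th percentile of all values (blue diamonds) and as a range over all settings tried (grey). *Neurod1* stayed between 1.68 and 1.91, whereas *Six6* and *Eya4* went to 0 when low values were raised.

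Of the 32 members with a direction, 23 had the same sign under every setting tried. *Neurod1* ranged from 1.68 to 1.91, *Gata3* from −0.48 to −0.46, *Eya2* from −0.58 to −0.53 and *Otx2* from 0.86 to 0.98. *Six6*, *Eya4*, *Gbx2*, *Rorb*, *Sall1*, *Barhl1* and *Dlx6* had no difference left once values below 4.11 were raised to it. *Six4* and *Id2* changed sign, to 0.52 and 0.10, when the probe sets of a gene were averaged.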

How the data were processed

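The authors deposited a log2 level for each probe set of 2 MOE430A arrays. The authors labelled cRNA with biotin, hybridised and scanned it, and name MAS5.0, RMA and multi-mgMOS of the PUMA package in their methods. Which of these gave the deposited levels, and the scaling between arrays, are not given in the sources used here, and the base of the logarithm was inferred from the size of the values. Levels listed at exactly 0 were kept, at 1310 probe sets on the +/+-titled array and 1028 on the −/−-titled array.

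Of 22690 probe sets, 64 controls were left out, and 20380 named 1 gene in the platform annotation. Symbols were updated by gene identifier to RefSeq of GRCm38.p6 for 20364 probe sets. Probe sets with several symbols were not used. Each gene was represented by its most intense probe set on average, and differences were centred on the median over all probe sets. Outside the group, values are of 1 probe set per gene except for *Igf1*, *Gh* and *Pomc*, and agreement with other probe sets of a gene is not given. The size limit was 1 log2 unit, as in the methods of the study, whose probability criterion needs uncertainties and was not applied. Members and gene lists were chosen with earlier results of these data known. All members were named, of other otic factors the 5 with the largest difference at a level of 7 or more, and the 3 of the highest level per marker list. *Pomc* by its second probe set, *Cga*, *En1*, *Slc26a5*, *Fgf20*, *Coch*, *Cldn18*, *Tubb3*, *Gap43*, *Uchl1*, *Scg2*, *Lhb*, *Fshb*, *Prl*, the other NEUROD and NEUROG genes, the E proteins and the partners of the EYA genes were named outside this rule, after their values were seen. The number of arrays limits the precision. Protein sequences were not used here.

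The alternatives were no centring, quantile normalization, loess (span 0.3), a floor at the 25th percentile, genes above the median level, means over probe sets, _x_at and _s_at probe sets left out and size limits of 0.5 and 2. The steps were tested on simulated data. Scripts ran in Python 3.11.15 using pandas 2.3.3, numpy 2.4.6, matplotlib 3.10.9 and statsmodels 0.14.6.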

Additional observations from a re-analysis of the deposited data

How the results depend on the processing

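No paired analysis was possible because each title has 1 column of values. Among members the median difference ranged from −0.13 to −0.07 over the alternatives. No centring, quantile normalization, loess and means over probe sets each kept the count of members above and below the size limit at 2 and 1. Leaving out _x_at and _s_at probe sets could not change a member, as none of the members' probe sets was of these types. With a floor set at the 25th percentile, 5 members were higher, 1 was above the limit and 0 were below it, and of the other otic transcription factors 3 were above and 1 below. With genes above the median level alone, which leaves fewer genes, 2 members were higher and 10 lower with 0 above and 0 below the limit, and of the other otic transcription factors 8 were higher and 17 lower with 0 past the limit in either direction. A size limit of 0.5 gave 5 members above and 3 below, and a limit of 2 gave 1 above and 1 below. Of 204 values of single members under the alternatives, 198 moved by less than the SD between probe sets at their level and 6 by more, and none of the 3 differences past the limit turned its sign. Those 6 were *Six6* and *Eya4* with low values raised and *Six4*, *Id2*, *Tbx3* and *Lhx3* with probe sets averaged. The 204 include values that could not move, such as means over probe sets for the 24 members with 1 probe set. Signal close to the floor limits what can be read for the 12 members with a mean level below 5, of which 2 were above the 25th percentile of all values on both arrays.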

Other observations

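Other factors of the same lineages, which were chosen after their values were seen, are given here as values. Of the SOX genes, *Sox4*, *Sox9* and *Sox10* were at 11.07, 9.31 and 9.14 on the +/+-titled array and 10.95, 9.18 and 8.91 on the −/−-titled array, with differences of −0.14, −0.15 and −0.25, while *Sox11* differed by 0.12. *Sox3*, at 5.54 and 4.85 by the stronger of its 2 probe sets, had a difference of −0.72, below the 5th percentile of −0.52 of genes at its level. Of the targets of Notch that hold back hair cell fate, *Hes1* was at 7.02 and 6.89, *Hes5* at 5.72 and 5.81, *Hey1* at 6.57 and 6.96, *Hey2* at 6.23 and 6.25 and *Heyl* at 6.40 and 6.63, in the same order. *Insm1*, a zinc finger gene of early neuroblasts and endocrine cells, was at 3.47 and 4.86, at a mean level where differences of this size were frequent.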
